A study of Mus musculus with 12 samples.

Results

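The comparison described here is that of cellular Feimin knockout with wild-type gastrocnemius, the main muscle of the calf, in male mice after a 90 min run at a pace of 60% of each animal's maximum. It takes in 6 of the 12 libraries analysed, chosen by their labels alone: exercised WT replicates 3, 4 and 5, and exercised MKO replicates 1, 2 and 4. WT mice carried the floxed alleles (fl/fl) without deletion, and cFeimin MKO mice were littermates in which cellular Feimin was deleted. The sources used here do not give the promoter that drives the deletion, the age of the mice, or the time and hour of sampling after the run. The run is common to all 6 mice, and the 6 resting libraries enter only the estimate of the spread and the comparisons with rest. Of 43432 gene identifiers, 13883 had at least 10 counts in 3 or more of the 6 libraries, and these are described. The libraries are labelled as separate samples with no batch, litter or day, and p-values therefore measure only the spread between these samples. Levels are CPM, counts scaled to a common library size, always given in the order of the replicates above. A log2 fold change is MKO minus WT with its standard error, and a gene passed where its p-value from edgeR's quasi-likelihood test, adjusted after Benjamini and Hochberg over all 13883 genes, was under 0.05.

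Feimin is a muscle protein known as a secreted factor that acts through the receptor MERTK, and the labels here speak of its cellular form. The study's title concerns the role of that form in running capacity and in muscle heat production. A bout of running is known to raise immediate-early transcription factors such as the EGR, FOS and NR4A proteins in muscle within minutes to hours. It also shifts clock genes, fuel-use genes and stress genes. The calcium pump SERCA is a source of heat in muscle, since the peptide sarcolipin can make it spend ATP without moving calcium.

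The 6 libraries held 14324010 to 14563501 counts, so depth hardly differed, and 3 counts were worth 0.205 to 0.223 CPM. Between 20.6% and 24.3% of the counts fell on mitochondrial genes. The muscle label fitted its markers: Ckm, the muscle creatine kinase gene, stood at 24679, 27609 and 21073 CPM in WT and 23069, 25560.0 and 22402 CPM in MKO muscle. Libraries within a group were not alike. On the 1st principal component of the 6 libraries, which held 39.2% of the variance, WT lay at -12.4, -7.71 and -36.9 and MKO at 14.27, 2.14 and 40.7. WT replicate 5 and MKO replicate 4 were thus the 2 ends, and MKO replicate 2 lay nearest to WT.

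After running, 5 of 13883 genes passed (0.036%), 1 higher and 4 lower in MKO muscle. Galectin-8 (Lgals8) rose, and Feimin itself, the immediate-early gene Egr1, the guidance gene Sema3a and the MYC antagonist gene Mnt fell. Sema3a reached the minimum count only through the WT libraries, in which it is high, so the filter fixed some of its difference. Without adjustment, 2252 genes had a p under 0.05 (694 by chance), with 982 higher (7.07%) and 1270 lower (9.15%). In 1486 genes (10.7%) all 3 MKO libraries lay above all 3 WT libraries, and in 1757 (12.7%) all 3 lay below. The median over all genes was -0.0016 after scaling by TMM, which itself centres the fold changes near 0. MKO replicate 4 was farthest from WT in 1724 of the 2252 genes and MKO replicate 2 nearest in 1351. The number that passed turned on 1 library: 131 genes passed without MKO replicate 2 (79 higher and 52 lower, the 5 among them), and 2 without WT replicate 5, without MKO replicate 1 or without resting WT replicate 4. With MKO replicate 4 or resting WT replicate 1 left out 3 passed. Without MKO replicate 4 the genes at an unadjusted p under 0.05 numbered 970, and without WT replicate 5 they numbered 1372. With both left out, a pair chosen after the data were seen, they numbered 711, near the 694 by chance. In that fit 4 genes passed, of which 2 were among the 5. DESeq2 called 101 genes, 46 higher and 55 lower, again with all 5 among them. Fitted on the 6 exercised libraries alone, or without the filter on low counts, only Lgals8 and Feimin of the 5 passed.

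**Figure D1:**
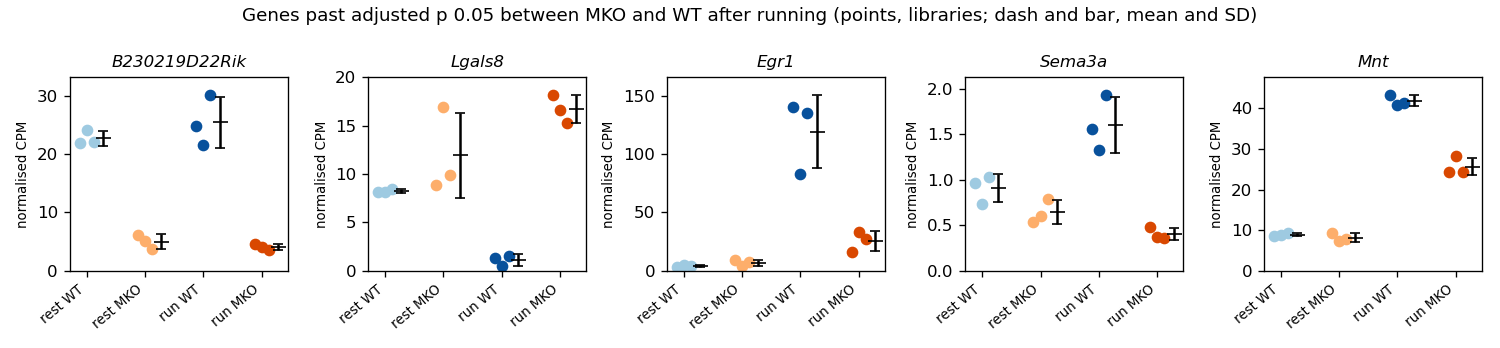
Normalised CPM (linear axes) of the 5 genes that passed between MKO and WT muscle after running, with each library as a point, coloured by group, and the mean ± SD beside it; the resting groups are shown for reference. In each panel the 3 running MKO points lie apart from the 3 running WT points, and Lgals8 alone lies above them. For Sema3a the filter on low counts fixed some of that difference.

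The labels name no gene symbol for Feimin, and B230219D22Rik was taken for it from general knowledge (ENSMUSG00000045767, chromosome 13, 55693124 to 55703500, plus strand; GRCm38.p6, as for all positions). It stood at 24.7, 21.5 and 30.1 CPM in WT and 4.58, 4.05 and 3.52 CPM in MKO muscle. Every MKO library was far below every WT library, the direction of the labels. The log2 fold change was -2.65 ± 0.18, adjusted p = 0.000118, from 25.5 ± 4.36 to 4.05 ± 0.534 CPM (mean ± SD, n = 3 each). The sources used here do not say which exons were removed. In a bulk sample, fewer cells of a type and less RNA per cell cannot be told apart, so the remaining counts cannot be placed in fibres or in other cells. The TAM receptors, to which MERTK belongs, and their ligands had 3 of 5 measured members positive (median 0.10) and none passed. Mertk itself was at 1.13, 2.28 and 2.98 CPM in WT and 3.49, 2.51 and 3.16 CPM in MKO muscle, with overlapping groups (0.53 ± 0.28, adjusted p = 0.367). Among the 62 genes tested within 5 Mb of B230219D22Rik, 11 (17.7%) had an unadjusted p under 0.05, beside 16.2% of all genes, and none passed besides the targeted gene.

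Galectin-8 binds sugars that become exposed when an endosome or lysosome is torn and calls in the autophagy receptor NDP52. Lgals8 (ENSMUSG00000057554, chromosome 13, 12439415 to 12464944, minus strand) stood at 1.27, 0.441 and 1.56 CPM in WT and 18.2, 16.6 and 15.3 CPM in MKO muscle. The lowest MKO library was many times above the highest WT library. This gave a log2 fold change of 3.92 ± 0.33, adjusted p = 0.000443. The gene passed in all 12 fits that left out 1 library. At rest the levels were 8.14, 8.12 and 8.48 CPM in WT and 8.901, 16.95 and 9.93 CPM in MKO muscle, a log2 fold change of 0.53 ± 0.26. Exercised WT muscle was thus the low group of the 4. The difference between the genotype effects after running and at rest was 3.39 ± 0.42, adjusted p = 0.0589, the lowest of all 13883 genes, which missed the threshold. Lgals8 shares 155 exonic bases with Heatr1 on the opposite strand, and the sources used here do not say whether counts were made by strand. Heatr1, a ribosome biogenesis gene, was at 7.49, 6.54 and 8.33 CPM in WT and 6.09, 6.04 and 6.31 CPM in MKO muscle (-0.28 ± 0.12, adjusted p = 0.291), the other direction from Lgals8.

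The rest of the galectin family did not pass. Of 7 measured members 3 were positive and 4 negative (median -0.10, which turned to 0.14 without WT replicate 5). Lgals3, the galectin of activated macrophages that also binds MERTK, was at 12.1, 8.52 and 10.3 CPM in WT and 30.4, 9.44 and 32.4 CPM in MKO muscle (1.22 ± 0.45, adjusted p = 0.234), with MKO replicate 2 inside the WT range. Lgalsl, a galectin-related protein gene, had -0.43 ± 0.18, adjusted p = 0.272, and its MKO libraries all lay below WT. Per kilobase of exon, the mean level of Lgals8 was 0.296 CPM in WT and 4.52 CPM in MKO, beside 246 and 309.6 for Lgals1, the abundant galectin of muscle. The partners of galectin-8 and the autophagy genes for damaged membranes had 13 of 24 members positive (median 0.0049) and none passed. Calcoco2, the gene of NDP52, had no counts in any of the 6 libraries and is not among the 24. Optn, an autophagy receptor, was at 81.99, 88.2 and 131 CPM in WT and 79.5, 73.9 and 65.2 CPM in MKO muscle (-0.46 ± 0.17, adjusted p = 0.238), the MKO libraries below WT. Lysosomal genes had 20 of 26 measured members positive (median 0.14, or 0.24 without MKO replicate 2 and 0.066 without MKO replicate 1), with 5 of 26 members above and 3 below without overlap, beside 10.7% and 12.7% of all genes, so that the share below was near that of all genes. The cathepsin gene Ctsb (0.39 ± 0.11) and Ctsh (0.73 ± 0.22) lay above WT in all 3 MKO libraries, whereas the galactosidase gene Gla (-0.53 ± 0.16) lay below.

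Of the immediate-early transcription factor genes 1 passed, Egr1, which fell. Egr1 (ENSMUSG00000038418, chromosome 18, 34859823 to 34864984, plus strand), a zinc finger factor that nerve and muscle activity induce within minutes, stood at 140.0, 82.8 and 135 CPM in WT and 16.1, 32.9 and 27.4 CPM in MKO muscle. The highest MKO library was well below the lowest WT library. The log2 fold change was -2.23 ± 0.31, adjusted p = 0.0387. At rest the gene was at 2.83, 5.101 and 3.999 CPM in WT and 9.04, 4.09 and 7.21 CPM in MKO muscle, so both exercised groups lay above both resting groups. The difference between the genotype effects was -2.996 ± 0.48, adjusted p = 0.235, which did not pass. Egr1 missed the threshold in the fits without WT replicate 3 or 5 or without MKO replicate 1 or 4 (adjusted p = 0.119, 0.182, 0.205 and 0.21), and without resting WT replicate 1, 3 or 4 or resting MKO replicate 3 (0.0548, 0.0584, 0.0834 and 0.065). It also missed with the 6 exercised libraries alone (0.102) and without a filter (0.0789).

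Of 27 measured immediate-early transcription factor genes, 23 had a negative value (median -0.51), and 8 lay below WT in all 3 MKO libraries against 1 above, beside the 12.7% and 10.7% of all genes. At rest the median of the same genes was 0.02. Fosb, which pairs with JUN proteins in AP-1, was at 67.4, 55.2 and 65.9 CPM in WT and 9.58, 26.2 and 7.68 CPM in MKO muscle (-2.12 ± 0.39, adjusted p = 0.125). MKO replicate 2 was the nearest to WT and still under the lowest WT library. Mafk, a small MAF partner of NRF2, was at 84.4, 64.1 and 112 CPM in WT and 48.3, 41.6 and 39.5 CPM in MKO muscle (-1.01 ± 0.20, adjusted p = 0.156), without overlap. Csrnp1 (-0.92 ± 0.34, adjusted p = 0.234) also lay below WT in every MKO library. Nr4a2, an orphan nuclear receptor that exercise induces, was at 96.7, 85.7 and 125 CPM in WT and 49.2, 89.3 and 48.3 CPM in MKO muscle (-0.72 ± 0.24, adjusted p = 0.218). Junb, another AP-1 gene, was at 580.2, 658 and 507 CPM in WT and 237, 521 and 287 CPM in MKO muscle (-0.74 ± 0.33, adjusted p = 0.303). In both, MKO replicate 2 lay within the WT range and the other two below it. The median of the list was -0.42 without MKO replicate 1 and -0.72 without MKO replicate 2.

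**Figure D2:**
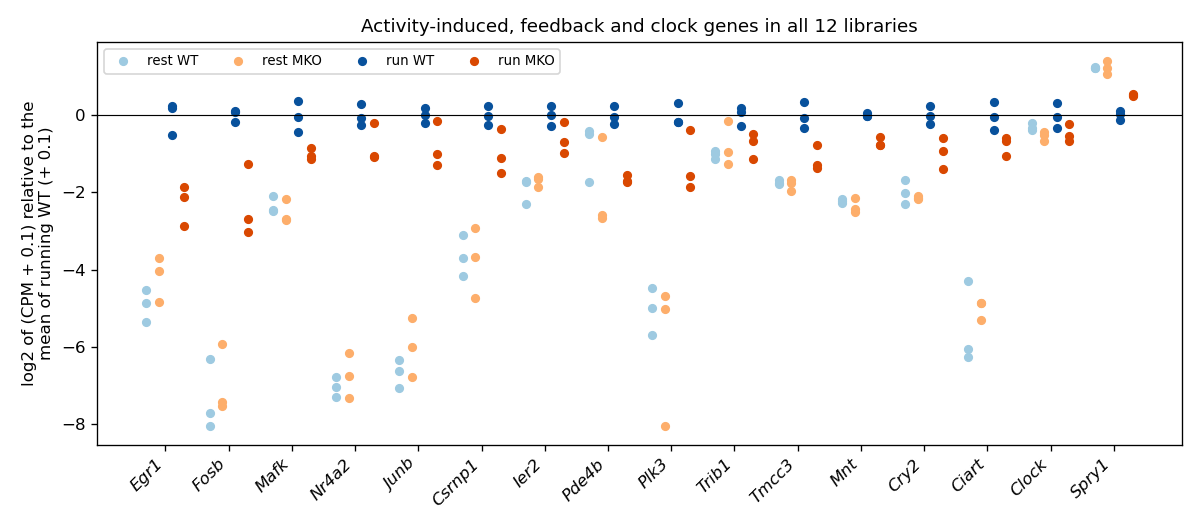
Levels of activity-induced, feedback and clock genes in all 12 libraries, as log2 of CPM relative to the mean of running WT (a small constant added to each); points are libraries and colours the 4 groups. In every gene but Spry1 the running MKO points (dark orange) centre below running WT (dark blue).

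Feedback and signalling genes that activity induces had 17 of 28 negative values (median -0.22), and none passed. Pde4b, a phosphodiesterase that breaks down cAMP, was at 85.03, 75.3 and 104 CPM in WT and 26.5, 29.7 and 26.98 CPM in MKO muscle (-1.67 ± 0.49, adjusted p = 0.198). Plk3, a stress kinase gene, was at 23.6, 32.8 and 23.4 CPM in WT and 8.82, 20.3 and 7.17 CPM in MKO muscle (-1.14 ± 0.40, adjusted p = 0.225). Trib1, a scaffold for protein degradation, was at 25.1, 19.5 and 27.01 CPM in WT and 10.9, 16.95 and 15.1 CPM in MKO muscle (-0.74 ± 0.25, adjusted p = 0.221). All 3 lay below WT in every MKO library. Spry1, which damps growth factor signalling and keeps satellite cells quiet, went the other way at 8.55, 9.401 and 9.97 CPM in WT and 13.5, 13.7 and 13.1 CPM in MKO muscle (0.53 ± 0.10, adjusted p = 0.156), as did Spred1 (0.41 ± 0.15, adjusted p = 0.225). Their MKO libraries all lay above WT.

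Clock genes followed the same direction. The repressor arm (the CRY, PER and REV-ERB proteins and their helpers) had 9 of 10 members negative (median -0.39, at rest 0.0043), and 6 lay below WT without overlap, beside 12.7% of all genes. Cry2, a core repressor, was at 82.5, 96.1 and 114 CPM in WT and 51.2, 64.9 and 37.1 CPM in MKO muscle (-0.93 ± 0.20, adjusted p = 0.19). Ciart, which binds the activator BMAL1, was at 33.5, 42.5 and 54.9 CPM in WT and 28.6, 20.9 and 27.3 CPM in MKO muscle (-0.77 ± 0.26, adjusted p = 0.222), and at rest at most 2.14 CPM in any library. Nr1d2 (-0.42 ± 0.13, adjusted p = 0.21) and Bhlhe40 (-0.38 ± 0.13, adjusted p = 0.221) had the same direction without overlap. Of the activators and output genes all 11 were negative (median -0.23), though their median at rest was -0.21. Clock, the partner of BMAL1, was at 10.6, 8.74 and 13.8 CPM in WT and 9.44, 6.86 and 7.61 CPM in MKO muscle (-0.47 ± 0.17, adjusted p = 0.225), with MKO replicate 1 inside the WT range. The nuclear receptor gene Rora was at 77.6, 73.96 and 93.6 CPM in WT and 5.61, 6.63 and 47.2 CPM in MKO muscle (-2.04 ± 0.95, adjusted p = 0.314), with MKO replicate 4 nearest to WT. The casein kinase gene Csnk1e was at 48.7, 44.9 and 41.6 CPM in WT and 35.8, 38.99 and 30.9 CPM in MKO muscle (-0.36 ± 0.11, adjusted p = 0.206). The hour of sampling is not given for any mouse, and its part in these values was not tested.

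Mnt (ENSMUSG00000000282, chromosome 11, 74830920 to 74845725, plus strand) encodes a partner of MAX that competes with MYC for E-boxes, the motif CACGTG that CLOCK and BMAL1 also bind. It stood at 43.4, 40.8 and 41.4 CPM in WT and 24.4, 28.2 and 24.4 CPM in MKO muscle, against 8.55, 8.79 and 9.24 CPM and 9.37, 7.24 and 7.69 CPM in resting WT and MKO muscle. The 6 exercised libraries split with a wide gap, and all lay above the resting ones. The log2 fold change was -0.71 ± 0.10, adjusted p = 0.036, the smallest effect of the 5 that passed. It missed the threshold in the fits without any 1 of the 3 exercised WT libraries or without MKO replicate 1 or 4 (adjusted p = 0.119, 0.104, 0.144, 0.216 and 0.21), and without any 1 of the 3 resting WT libraries (0.0584 to 0.0748). It also missed with the 6 exercised libraries alone (0.114) and without a filter (0.0789). In the MYC-MAX network 6 of 10 members were negative (median -0.17, -0.087 without WT replicate 5). Mga (-0.39 ± 0.15, adjusted p = 0.243) and Mlxip (-0.33 ± 0.11, adjusted p = 0.22), which also pair with MAX or its relative MLX, lay below WT in every MKO library, while Myc itself was at 6.497, 5.88 and 7.22 CPM in WT and 4.17, 6.19 and 5.09 CPM in MKO muscle (-0.34 ± 0.19, adjusted p = 0.391), with overlap.

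The promoters of Mnt and of the clock repressor Ciart are shown because all 3 MKO libraries lay below WT in both genes and both hold the palindrome CACGTG, in capitals, in the 250 bases before and 50 after the start (RefSeq, GRCm38.p6; Mnt chr11:74830674-74830973, plus strand; Ciart chr3:95882179-95882478, minus strand). Mnt holds 1 E-box and Ciart 3. Of all 32851 promoters of this length 7.15% hold one, and a promoter was on hand for 8 of the clock repressors, of which 4 hold one. A match is a description of the letters and was not tested for binding.
Mnt: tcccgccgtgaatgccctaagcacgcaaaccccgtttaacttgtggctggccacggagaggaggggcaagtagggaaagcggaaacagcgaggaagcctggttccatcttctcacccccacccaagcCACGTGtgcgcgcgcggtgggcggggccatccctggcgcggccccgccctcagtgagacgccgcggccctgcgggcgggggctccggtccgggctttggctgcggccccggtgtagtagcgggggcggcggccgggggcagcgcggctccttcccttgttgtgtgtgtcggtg
Ciart: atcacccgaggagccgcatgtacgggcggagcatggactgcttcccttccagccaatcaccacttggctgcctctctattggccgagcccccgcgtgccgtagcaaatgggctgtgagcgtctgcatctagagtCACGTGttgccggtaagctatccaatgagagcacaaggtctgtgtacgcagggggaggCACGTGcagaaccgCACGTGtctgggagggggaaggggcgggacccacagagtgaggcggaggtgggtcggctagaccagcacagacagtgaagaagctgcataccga

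Sema3a (ENSMUSG00000028883, chromosome 5, 13125414 to 13602565, plus strand), a secreted guidance cue made by muscle that repels axon tips through neuropilin and plexin receptors, stood at 1.55, 1.32 and 1.93 CPM in WT and 0.479, 0.369 and 0.359 CPM in MKO muscle. Each MKO library was below each WT library. These are few counts, and the gene reached the minimum of 10 counts in the WT libraries alone, so it was tested only through the group in which it is high and that choice fixed some difference. This gave a log2 fold change of -1.97 ± 0.26, adjusted p = 0.036. The gene missed the threshold in the fits without WT replicate 3 or 5 or MKO replicate 1 or 4 (adjusted p = 0.101, 0.144, 0.176 and 0.21), and without resting WT replicate 1 or 4 or resting MKO replicate 2 (0.0548, 0.0748 and 0.0566). It also missed with the 6 exercised libraries alone (0.117) and without a filter (0.0527). In the list of semaphorins, plexins and neuropilins, Sema3a included, 15 of 24 values were positive (median 0.10, 0.062 without MKO replicate 1). Plxnd1, a receptor of vessels, was at 26.4, 27.2 and 27.01 CPM in WT and 38.2, 32.4 and 32.6 CPM in MKO muscle (0.36 ± 0.08, adjusted p = 0.193), all MKO libraries above WT. Sema4c was at 16.7, 13.9 and 13.1 CPM in WT and 8.76, 11.6 and 8.54 CPM in MKO muscle (-0.60 ± 0.15, adjusted p = 0.193), all below.

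Genes of muscle heat production did not pass. Sln, the sarcolipin gene, was at 1.13, 1.18 and 1.26 CPM in WT and 3.97, 3.24 and 40.8 CPM in MKO muscle (3.74 ± 0.99, adjusted p = 0.193). All MKO libraries lay above WT, but MKO replicate 4 was about 10 times the other two, and without it the log2 fold change was 1.60. At rest Sln was at 4.28, 0.805 and 1.45 CPM in WT and 5.55, 2.95 and 6.36 CPM in MKO muscle. Atp2a1, the fast-fibre SERCA, was at 25065, 27226 and 27286 CPM in WT and 23734, 24667 and 20353 CPM in MKO muscle (-0.21 ± 0.14, adjusted p = 0.468), without overlap. Ucp3, a mitochondrial carrier of muscle that burns fatty acids, was at 200.4, 215 and 189 CPM in WT and 234, 204 and 217 CPM in MKO muscle (0.12 ± 0.17, adjusted p = 0.75), with overlap. Atp2a1 shares 763 exonic bases with Rabep2. Of 25 genes for the pump, its regulators and calcium release 19 were negative (median -0.14, -0.075 without MKO replicate 4), with 9 below WT and 3 above without overlap, beside 12.7% and 10.7% of all genes, so that the share above was near that of all genes. Those below include Itpr1, the IP3-gated release channel (-0.78 ± 0.24, adjusted p = 0.208), Trdn, which anchors the store protein calsequestrin (-0.69 ± 0.25, adjusted p = 0.236), and Jph1, which ties the store to the surface tubules (-0.40 ± 0.13, adjusted p = 0.211). Casq2, the slow-fibre calsequestrin, lay above at 12.1, 7.71 and 12.5 CPM in WT and 14.1, 12.7 and 33.00 CPM in MKO muscle (0.88 ± 0.36, adjusted p = 0.26). The thermogenic and uncoupling genes had 13 of 21 positive values, none passed, and the median of 0.12 ranged from 0.039 to 0.15 when a library was left out.

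MKO replicate 4 had the highest levels after running in a group of cardiac and developmental genes. Tnnt2, cardiac troponin T, was at 2.05, 1.395 and 2.46 CPM in WT and 3.56, 4.05 and 28.3 CPM in MKO muscle (2.598 ± 0.72, adjusted p = 0.196). Myl4, the embryonic and atrial light chain, was at 3.46, 4.41 and 4.09 CPM in WT and 5.68, 5.31 and 37.8 CPM in MKO muscle (2.03 ± 0.72, adjusted p = 0.225). Actc1, cardiac actin, was at 297, 209 and 138 CPM in WT and 409.5, 508 and 1377 CPM in MKO muscle (1.83 ± 0.74, adjusted p = 0.256). In each all 3 MKO libraries lay above WT, MKO replicates 1 and 2 by a small margin in Tnnt2 and Myl4. Without MKO replicate 4 the log2 fold changes were 0.96, 0.47 and 1.101. Rrad, a calcium channel inhibitor raised in injured muscle, was at 1.91, 1.47 and 2.08 CPM in WT and 5.81, 2.43 and 12.7 CPM in MKO muscle (1.94 ± 0.57, adjusted p = 0.198). The genotype effect at rest was also positive in Tnnt2 (2.38 ± 0.73), Myl4 (1.35 ± 0.70) and Rrad (1.61 ± 0.51), and none passed there. Resting Tnnt2 was at 1.31, 2.08 and 1.86 CPM in WT and 7.23, 8.04 and 12.1 CPM in MKO muscle. Slow-fibre genes had 16 of 17 values positive (median 0.29, 0.49 without WT replicate 3), with 6 above WT without overlap beside 10.7% of all genes, and fast-fibre genes 12 of 16 negative (median -0.09, -0.012 without WT replicate 4). Tnni1, slow troponin I, was at 47.8, 39.1 and 37.7 CPM in WT and 53.97, 65.8 and 94.6 CPM in MKO muscle (0.78 ± 0.58, adjusted p = 0.512). Myh4, the myosin of the fastest fibres, was at 30711, 35244 and 33703 CPM in WT and 27326, 31615 and 22466 CPM in MKO muscle (-0.29 ± 0.17, adjusted p = 0.417), with overlap. None of these genes passed.

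**Figure D3:**
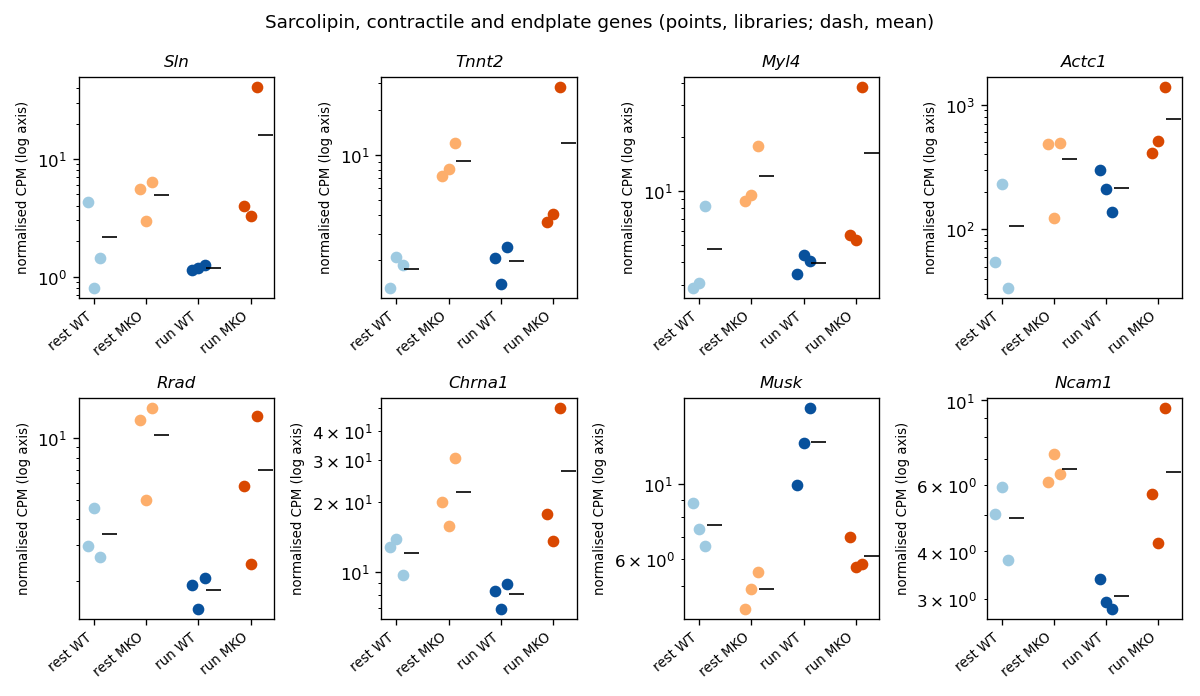
Normalised CPM on log axes of sarcolipin, cardiac or developmental contractile genes, Rrad and endplate genes; points are libraries, dashes group means. Running MKO replicate 4, the top running MKO point, sets the mean in Sln, Tnnt2, Myl4 and Actc1, and Musk is the gene in which running MKO lies below running WT.

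Endplate genes had mostly positive values, with Musk an exception, and none passed. Musk, the receptor kinase that gathers acetylcholine receptors under the nerve, was at 9.96, 13.3 and 16.8 CPM in WT and 6.98, 5.68 and 5.81 CPM in MKO muscle (-1.11 ± 0.19, adjusted p = 0.112), all MKO libraries below WT. Its log2 fold change at rest was -0.63 ± 0.20, which did not pass. The receptor subunit gene Chrna1 was at 8.33, 6.98 and 8.93 CPM in WT and 17.8, 13.6 and 50.1 CPM in MKO muscle (1.75 ± 0.43, adjusted p = 0.193), all above. Ncam1, an adhesion gene of denervated fibres, was at 3.39, 2.94 and 2.83 CPM in WT and 5.68, 4.202 and 9.54 CPM in MKO muscle (1.08 ± 0.27, adjusted p = 0.193). Runx1, a factor of denervated muscle, was at 1.91, 2.57 and 3.27 CPM in WT and 3.49, 3.83 and 10.2 CPM in MKO muscle (1.17 ± 0.42, adjusted p = 0.228). Both lay above in every MKO library. In the list of endplate and denervation genes 15 of 17 were positive (median 0.21, 0.15 without MKO replicate 4), 6 lay above WT without overlap (10.7% of all genes) and Musk was the 1 that lay below (12.7% of all genes). At rest the median was 0.11.

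Macrophage and antigen-presentation genes had positive values in every measured member, though no member passed. All 18 macrophage markers measured, of 22 listed, were positive (median 1.08, with 6 above WT without overlap beside 10.7% of all genes), and so they were at rest (median 0.62). The summed level was 81.3, 78.9 and 68.5 CPM in WT and 201, 85.1 and 207 CPM in MKO muscle. MKO replicate 2 was the lowest of its group. Mrc1, the mannose receptor of resident macrophages, was at 1.77, 2.64 and 2.31 CPM in WT and 5.81, 3.69 and 5.24 CPM in MKO muscle (1.14 ± 0.26, adjusted p = 0.193). C1qc, a chain of the first complement component, was at 6.64, 6.54 and 5.66 CPM in WT and 12.8, 7.81 and 14.1 CPM in MKO muscle (0.88 ± 0.19, adjusted p = 0.19). Fcgr3, an antibody receptor, was at 2.401, 1.62 and 2.01 CPM in WT and 5.47, 2.58 and 6.74 CPM in MKO muscle (1.29 ± 0.32, adjusted p = 0.193). In all 3 genes every MKO library was above WT. Leaving out WT replicate 5 and MKO replicate 4 together gave a median of 0.73. The other 4 markers of the list (Cx3cr1, Fcgr1, Aif1 and Timd4) reached at most 13 counts in a library and were not tested, and Aif1 had no counts in 5 of the 6.

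MHC class II genes, which present peptides to helper T cells, had 6 of 12 members measured together with the dendritic cell genes, all positive (median 1.19, at rest 0.49). Cd74, the invariant chain, was at 23.7, 26.9 and 16.4 CPM in WT and 52.1, 37.00 and 59.3 CPM in MKO muscle (1.15 ± 0.19, adjusted p = 0.107). H2-Ab1 was at 9.18, 9.55 and 6.18 CPM in WT and 19.4, 13.1 and 25.2 CPM in MKO muscle (1.21 ± 0.22, adjusted p = 0.125). Their groups did not overlap. H2-Aa was at 9.68, 9.62 and 6.03 CPM in WT and 20.1, 12.6 and 24.2 CPM in MKO muscle (1.17 ± 0.23, adjusted p = 0.156). H2-Eb1 was at 4.802, 5.29 and 3.57 CPM in WT and 11.2, 6.12 and 14.5 CPM in MKO muscle (1.22 ± 0.26, adjusted p = 0.183). These chains form the class II pairs that hold the peptide, and again no library crossed. The summed level of the list was 50.5, 54.8 and 33.9 CPM in WT and 108, 71.4 and 129.6 CPM in MKO muscle. With the same pair of libraries left out the median was 0.78. Cd53, a tetraspanin of white blood cells, was at 0.777, 0.588 and 0.521 CPM in WT and 2.46, 1.401 and 2.73 CPM in MKO muscle (1.79 ± 0.32, adjusted p = 0.125). Lyn, a kinase of myeloid cells, was at 2.19, 2.06 and 1.56 CPM in WT and 4.31, 3.17 and 4.305 CPM in MKO muscle (1.02 ± 0.20, adjusted p = 0.156). Of the 13 lymphocyte and neutrophil markers only Ptprc, the pan-leukocyte CD45, was measured, at 0.706, 0.808 and 0.893 CPM in WT and 1.37, 0.5897 and 1.87 CPM in MKO muscle, with overlap. The other 12 had too few counts to be tested. The neutrophil gene S100a9 had 5, 7 and 0 counts in WT and 5, 11 and 10 in MKO muscle, and the T cell gene Cd4 had 4, 0 and 3 in MKO and none in WT muscle. Cd3e, another T cell gene, had 2 counts in 1 WT library, while Cd3d, Cd8a, S100a8 and Ly6g had no counts in any of the 6. Interferon-stimulated genes had 13 of 16 positive values (median 0.19) and chemokine and inflammation genes 10 of 15 (median 0.13, 0.40 without WT replicate 5 and 0.0088 without WT replicate 4).

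The promoters of H2-Aa and H2-Eb1 are shown because all 3 MKO libraries lay above WT in both genes and both hold the Y-box CTGATTGG, the letters NF-Y binds in class II promoters, in capitals within the same window (RefSeq, GRCm38.p6; H2-Aa chr17:34287774-34288073, minus strand; H2-Eb1 chr17:34305617-34305916, plus strand). Read on both strands, it is in 4.10% of the 32851 promoters, and in 2 of the 4 class II and dendritic cell genes looked at. Neither of these windows holds an E-box, and those of Mnt and Ciart hold no Y-box.
H2-Aa: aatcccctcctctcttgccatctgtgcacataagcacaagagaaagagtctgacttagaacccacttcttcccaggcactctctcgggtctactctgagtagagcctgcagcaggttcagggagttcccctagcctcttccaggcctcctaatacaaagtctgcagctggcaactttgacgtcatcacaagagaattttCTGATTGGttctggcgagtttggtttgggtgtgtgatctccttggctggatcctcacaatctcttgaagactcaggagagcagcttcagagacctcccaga
H2-Eb1: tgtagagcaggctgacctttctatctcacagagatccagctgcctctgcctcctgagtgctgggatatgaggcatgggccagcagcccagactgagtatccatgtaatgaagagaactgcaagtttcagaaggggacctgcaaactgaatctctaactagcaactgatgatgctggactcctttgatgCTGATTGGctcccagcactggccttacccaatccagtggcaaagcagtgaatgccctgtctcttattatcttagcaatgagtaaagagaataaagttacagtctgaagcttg

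Connective tissue genes had mostly positive values. Fibro-adipogenic progenitor and fibroblast markers had 14 of 18 positive values (median 0.38, at rest 0.20) and 7 above WT without overlap, beside 10.7% of all genes. The other 4 were negative, the lowest at -0.18. The summed level of these markers was 655, 739 and 747 CPM in WT and 859, 728 and 736 CPM in MKO muscle. MKO replicates 2 and 4 thus lay inside the WT range. Pdgfra, the defining receptor of these cells, was at 4.31, 4.26 and 5.36 CPM in WT and 8.003, 6.12 and 7.39 CPM in MKO muscle (0.63 ± 0.14, adjusted p = 0.193). Extracellular matrix genes had 31 of 35 positive values (median 0.41, 0.24 without MKO replicate 4). Col6a1, a collagen around the fibres, was at 19.4, 20.4 and 19.9 CPM in WT and 34.6, 21.7 and 33.3 CPM in MKO muscle (0.58 ± 0.15, adjusted p = 0.193). Thbs4, a matrix protein of tendon and muscle attachments, was at 36.02, 32.2 and 28.5 CPM in WT and 53.01, 59.04 and 82.9 CPM in MKO muscle (1.01 ± 0.22, adjusted p = 0.19). Both were above WT in every MKO library. Col1a1 was at 24.4, 22.4 and 16.1 CPM in WT and 51.2, 18.5 and 76.6 CPM in MKO muscle (1.22 ± 0.41, adjusted p = 0.221), with MKO replicate 2 inside the WT range.

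**Figure D4:**
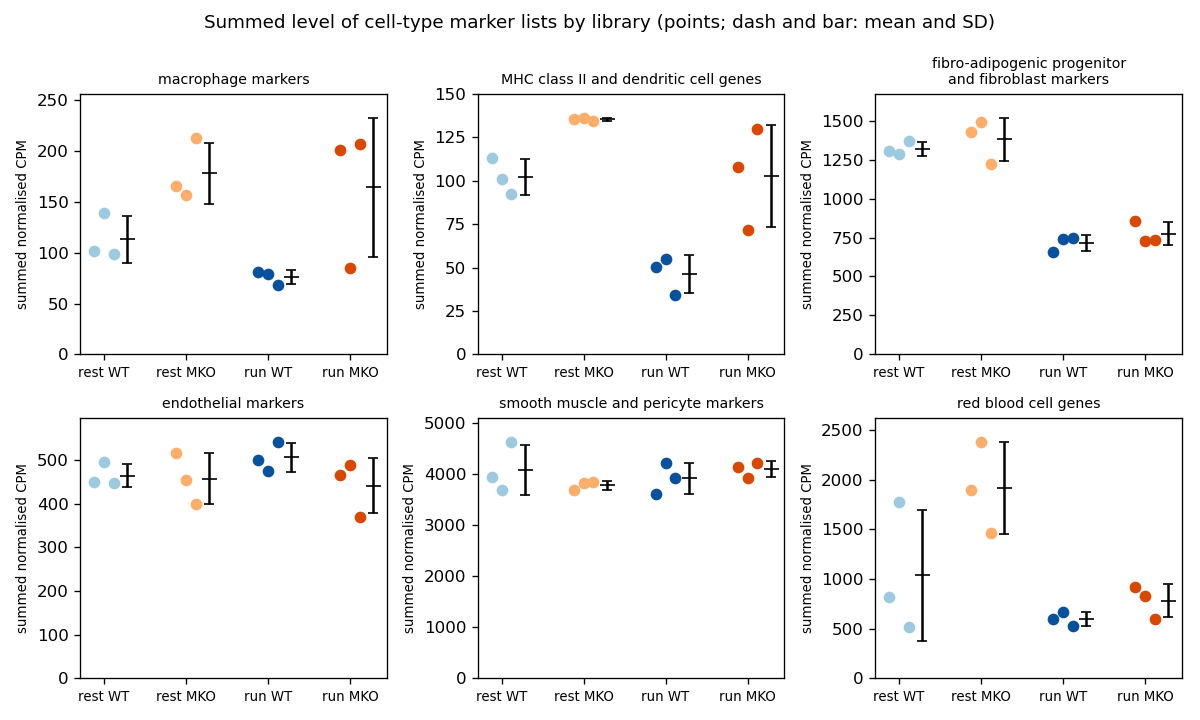
Summed normalised CPM (linear axes) of 6 lists of cell-type markers in each library, with mean ± SD per group; colours are the groups. Macrophage and class II sums of the running MKO libraries lie above those of running WT, with running MKO replicate 2 the lowest MKO point in the macrophage panel.

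Other cell types gave mixed values. Of 20 endothelial markers 14 were negative (median -0.05, 0.05 without MKO replicate 4). Cldn5, the tight-junction claudin of vessels, was at 31.6, 24.02 and 25.1 CPM in WT and 12.04, 18.9 and 10.3 CPM in MKO muscle (-0.97 ± 0.20, adjusted p = 0.177). Flt1, a VEGF receptor, was at 80.7, 65.7 and 85.2 CPM in WT and 55.8, 55.4 and 43.3 CPM in MKO muscle (-0.58 ± 0.18, adjusted p = 0.198). Both lay below WT in every MKO library. Cdh5, the defining cadherin of the endothelium, was at 47.3, 44.7 and 57.6 CPM in WT and 47.2, 49.5 and 34.5 CPM in MKO muscle (-0.19 ± 0.14, adjusted p = 0.52), with overlap. Smooth muscle and pericyte markers had a median of -0.06 (0.03 without MKO replicate 4). Schwann cell markers had 12 of 14 positive (median 0.30, -0.10 without MKO replicate 1), adipocyte markers 1 of 7 (median -0.36, 0.016 without MKO replicate 4) and red blood cell genes all 7 (median 0.41, 0.25 without MKO replicate 1). The share of each cell type in the tissue was not measured, and its part in any value above was not tested.

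Genes of protein synthesis and respiration had small positive values in nearly every member, and none passed. Cytosolic ribosomal protein genes had 56 of 57 positive values (median 0.23), and 32 lay above WT without overlap, beside 10.7% of all genes. Rpl36 was at 43.2, 52.4 and 40.4 CPM in WT and 60.3, 63.3 and 68.01 CPM in MKO muscle (0.50 ± 0.11, adjusted p = 0.19). Rpl19 was at 44.4, 45.5 and 43.2 CPM in WT and 53.1, 53.2 and 61.99 CPM in MKO muscle (0.34 ± 0.08, adjusted p = 0.193). Many of these genes have near-identical pseudogene copies, and the sources used here do not say how reads with several matches were counted. Nuclear respiratory chain genes had 70 of 73 positive values (median 0.22, at rest 0.0051) and 10 above WT without overlap, a share near the 10.7% of all genes. Their summed level at rest was 23001, 22376 and 20965 CPM in WT and 24702, 24036 and 16981 CPM in MKO muscle. Resting MKO replicate 3 was thus the lowest, and it also had the smallest share of mitochondrial counts of the 12 libraries (16.9%). Cox6a2, the muscle form of a cytochrome oxidase subunit, was at 1019.9, 1184 and 1121 CPM in WT and 1388, 1364 and 1401 CPM in MKO muscle (0.32 ± 0.12, adjusted p = 0.242). The median was 0.13 without WT replicate 5, 0.15 without MKO replicate 4 and 0.055 without both, and the ribosomal median was 0.10 without both. The 13 genes of the mitochondrial genome had 6 positive values and a median of -0.05 (0.053 without WT replicate 5).

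No fuel-use gene passed. Fatty acid oxidation genes had 19 of 28 positive values (median 0.08), beside a median of -0.15 at rest. Their summed level at rest was 3502, 4769 and 3313 CPM in WT and 3898, 4182 and 2237 CPM in MKO muscle, lowest in resting MKO replicate 3. After running 9 lay above WT and 2 below without overlap, beside 10.7% and 12.7% of all genes. At an unadjusted p under 0.05, however, 0 were higher and 2 lower, beside 7.07% and 9.15% of all genes. Cpt1a, which admits fatty acids to mitochondria, was at 9.04, 9.92 and 13.6 CPM in WT and 8.34, 8.26 and 7.53 CPM in MKO muscle (-0.43 ± 0.15, adjusted p = 0.225), below WT. Fabp3, the muscle fatty acid carrier, was at 277, 242 and 246 CPM in WT and 372, 353 and 434 CPM in MKO muscle (0.60 ± 0.41, adjusted p = 0.471), above it. In the lipolysis and lipid droplet list 13 of 18 were positive (median 0.18, at rest -0.13). Of these 18 genes 5 lay above and 1 below without overlap, beside 10.7% and 12.7% of all genes. At rest MKO replicate 3 again had the lowest summed level. Hilpda, an inhibitor of the lipase ATGL, was at 4.802, 4.92 and 4.32 CPM in WT and 3.42, 2.801 and 2.58 CPM in MKO muscle (-0.67 ± 0.15, adjusted p = 0.193), below WT in every MKO library. Irs2, an insulin receptor substrate, was at 60.9, 58.7 and 139 CPM in WT and 40.5, 47.3 and 25.9 CPM in MKO muscle (-1.18 ± 0.42, adjusted p = 0.228), also below, in a glucose and glycogen list with a median of -0.03 (0.0084 without WT replicate 4). Pdk4, the kinase that shuts pyruvate out of the TCA cycle, was at 166, 177 and 304 CPM in WT and 326, 252 and 426 CPM in MKO muscle (0.63 ± 0.25, adjusted p = 0.256), with overlap.

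Stress and growth-control genes followed no single direction. FoxO, atrophy and growth arrest genes had 18 of 24 negative values (median -0.15, -0.24 without WT replicate 3, at rest -0.12), and 7 lay below WT without overlap, beside 12.7% of all genes. Mstn, myostatin, the brake on muscle growth, was at 55.7, 57.9 and 54.9 CPM in WT and 31.6, 40.4 and 12.1 CPM in MKO muscle (-1.004 ± 0.32, adjusted p = 0.214). Foxo3, a factor that drives atrophy genes, was at 21.8, 23.4 and 29.5 CPM in WT and 18.3, 19.8 and 20.4 CPM in MKO muscle (-0.35 ± 0.12, adjusted p = 0.222). In both every MKO library was below WT. The heat shock list had 14 positive and 19 negative values (median -0.07, 0.025 without WT replicate 3). The small heat shock genes Hspb2 (0.38 ± 0.11, adjusted p = 0.198) and Hspb3 (0.53 ± 0.16, adjusted p = 0.198) lay above WT, and Dnajb1, the inducible partner of HSP70 (-0.57 ± 0.23, adjusted p = 0.253), below. NRF2 targets and metallothioneins had a median of 0.05 (-0.013 without MKO replicate 4 and 0.22 without MKO replicate 2), with Nqo1 at 18.5, 19.2 and 20.5 CPM in WT and 24.01, 25.7 and 28.1 CPM in MKO muscle (0.42 ± 0.09, adjusted p = 0.193) above WT in every MKO library. In the integrated stress response list 14 of 25 were positive (median 0.05, -0.051 without WT replicate 5).

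**Figure D5:**
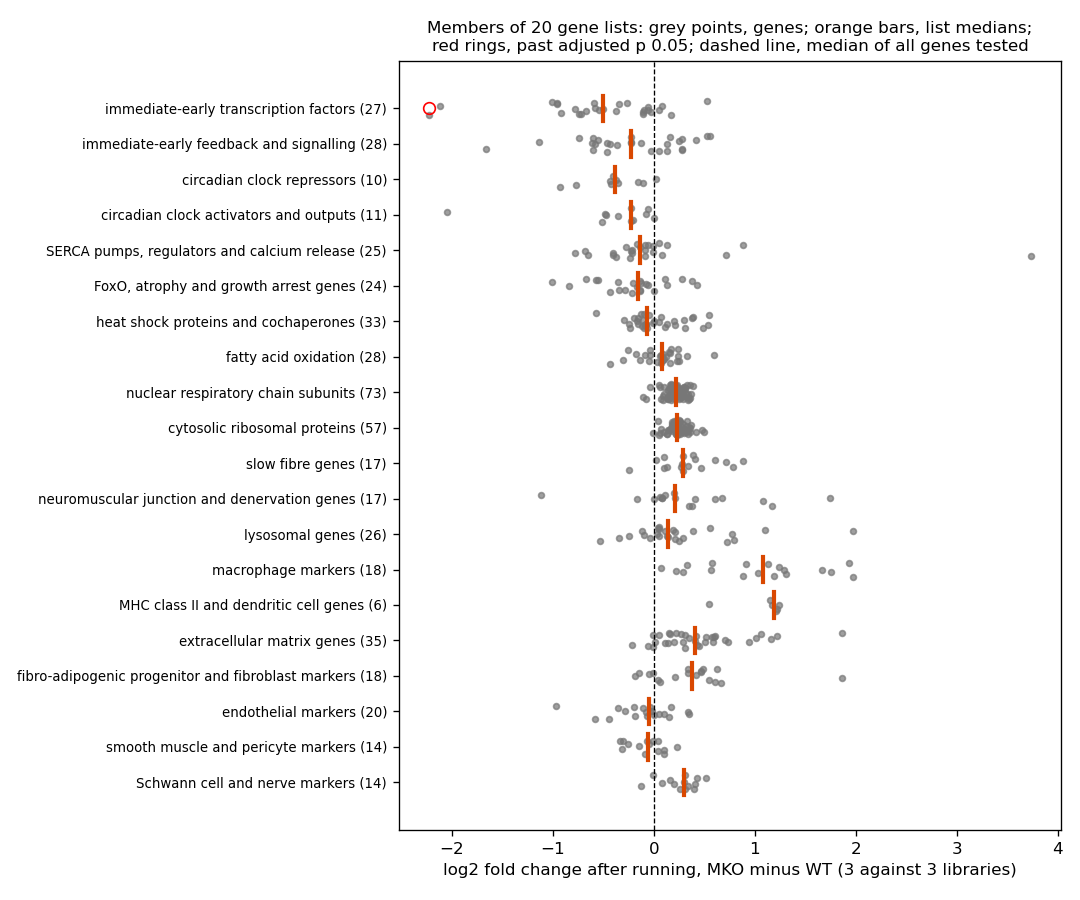
Log2 fold change after running of each measured member of 20 gene lists (grey points, number measured in brackets), the list median (orange bar), members that passed (red ring) and the median of all genes (dashed line). Macrophage and class II members lie to the right of the line, immediate-early and clock members mostly to the left, and ribosomal and respiratory chain members crowd just right of it.

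Further genes named by the size of their change or p-value follow, of which Mss51 alone belongs to a list, that of myokines and exercise-response genes. Mfhas1, a regulator of Toll-like receptor signalling, was at 2.97, 2.94 and 3.05 CPM in WT and 5.47, 5.82 and 6.46 CPM in MKO muscle (0.98 ± 0.15, adjusted p = 0.0792). The tetraspanin gene Tspan13 was at 13.6, 13.3 and 12.9 CPM in WT and 22.2, 23.00 and 33.4 CPM in MKO muscle (0.98 ± 0.16, adjusted p = 0.107). Both lay above WT in every MKO library. Tmcc3, a coiled-coil membrane protein of the endoplasmic reticulum, was at 63.2, 53.2 and 83.7 CPM in WT and 25.9, 38.6 and 27.2 CPM in MKO muscle (-1.13 ± 0.18, adjusted p = 0.0792). It lay below WT in every MKO library. Htra4, a serine protease gene, was at 6.64, 6.61 and 7.59 CPM in WT and 1.23, 1.77 and 0.4305 CPM in MKO muscle (-2.597 ± 0.45, adjusted p = 0.117), below WT. Itga4, an integrin of migrating cells, was at 9.39, 6.68 and 6.55 CPM in WT and 3.56, 3.32 and 1.51 CPM in MKO muscle (-1.43 ± 0.27, adjusted p = 0.148), also below. Hsd17b7, a cholesterol synthesis enzyme gene, was at 9.82, 12.2 and 19.1 CPM in WT and 5.81, 6.41 and 5.88 CPM in MKO muscle (-1.18 ± 0.23, adjusted p = 0.156), again below. Mss51, which encodes a mitochondrial protein of skeletal muscle, was at 37.7, 78.95 and 126 CPM in WT and 16.01, 14.96 and 10.6 CPM in MKO muscle (-2.55 ± 0.64, adjusted p = 0.193), with every MKO library below the lowest WT library. At rest the log2 fold changes were -1.68 ± 0.40 for Htra4, -2.05 ± 0.62 for Mss51 and -0.76 ± 0.24 for Hsd17b7. They were 0.53 for Mfhas1, 0.44 for Tspan13, -0.51 for Itga4 and -0.07 for Tmcc3, and none passed at rest.

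In 3 of the named genes all libraries of 1 group held no counts. Each reached the minimum count only through the group in which it is high, so a separation of the groups was fixed by that filter. Sco2, a cytochrome oxidase assembly gene, was at 0, 0 and 0 CPM in WT and 2.87, 1.92 and 2.65 CPM in MKO muscle, at least 11.4-fold higher in MKO against a floor of 3 counts per library. It shares 856 exonic bases with Tymp on the same strand, and Tymp was at 2.896, 0 and 2.75 CPM in WT and 0, 0.737 and 0.287 CPM in MKO muscle. How reads were divided between the pair was not tested. Galk1, galactokinase, was at 0, 0 and 0 CPM in WT and 1.37, 1.18 and 1.94 CPM in MKO muscle, at least 6.85-fold higher. Resting Sco2 was at 0, 2.95 and 2.34 CPM in WT and 3.55, 4.02 and 2.73 CPM in MKO muscle. Resting Galk1 was at 0, 1.07 and 0 CPM in WT and 1.27, 1.34 and 1.39 CPM in MKO muscle. Bex4 was at 1.27, 1.03 and 0.893 CPM in WT and 0, 0 and 0 CPM in MKO muscle, at least 4.98-fold lower in MKO, and had no counts in any of the 6 resting libraries. None of the 3 passed (adjusted p = 0.193, 0.193 and 0.117).

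To ask which values are particular to exercised muscle, the genotype effect at rest was subtracted. No gene of 13883 passed this test in edgeR (522 at an unadjusted p under 0.05), while DESeq2 called 3. Egr1 had a negative difference. Sox9, a cartilage and progenitor factor, had -1.42 ± 0.32, adjusted p = 0.985, and Thpo, thrombopoietin, 0.77 ± 0.15, adjusted p = 0.796. Feimin had -0.45 ± 0.25, adjusted p = 0.985, the same direction in both states. At rest Feimin was the 1 gene that passed, with 520 at an unadjusted p under 0.05.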

How the data were processed

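RNA sequencing libraries of gastrocnemius from 12 mice (4 groups of 3) were used; the 6 exercised libraries are compared here. The values are raw counts per Ensembl gene as deposited by the authors. The submitters' processing notes name HISAT2 2.2.1, StringTie 2.1.4, SAMtools 1.9 and DESeq2 1.40.2 and the build GRCm38.p6. The sources used here do not give the counting tool or its treatment of strand and of reads with several matches. The labels' protocols speak of 18 libraries, of which 12 were analysed. The column of exercised MKO replicate 4 is misspelt and was matched as the 1 left over. Symbols and positions come from GENCODE M21; 884 identifiers had no symbol.

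Genes with at least 10 counts in 3 of the 6 exercised libraries (13883; 18 got in through WT and 32 through MKO libraries alone, 1 of them a list member, Sema3a) went into 1 edgeR 4.0.16 quasi-likelihood model of all 12 libraries (TMM factors, 8 residual degrees of freedom, R 4.3.3), with Benjamini-Hochberg adjustment over all genes. The biological coefficient of variation was 15.2%. The fit was tested on simulated counts, drawn for each gene on its own and with no shift of whole libraries. In these, 100 genes of middling level were changed 4-fold and 100 changed 2-fold. It found 95% of the 4-fold and 68% of the 2-fold changes, with 8 false calls among 13636 genes. The real libraries differ as wholes within a group, so these shares do not carry over to them. Gene lists (41) are described by counts and medians without a test. The comparison, the lists and the named genes were chosen with earlier results of these data known. Genes were named by rule: 12 fixed genes, all that passed, the 15 smallest p-values each way among genes without overlap and at least 1 CPM, up to 6 members of each list, the 5 smallest p-values each way of the difference between states, and the 10 largest changes each way. Actc1, Junb, Ckm, Cdh5, Tymp, Kcnab1, Cntnap2 and the markers without counts were named after their values were seen. No libraries were duplicates of each other. The labels do not say that replicate numbers pair the samples. The correlation of deviations between same-numbered libraries lay between -0.14 and 0.083, and the exercised groups share only the number 4. With 3 libraries a group, this cannot show whether the numbers mark a batch. Alternatives were DESeq2 1.42.0, limma-voom (limma 3.58.1), robust estimation, other scalings and filters, a replicate block, the 6 exercised libraries alone and each library left out. Leaving out WT replicate 5 and MKO replicate 4 together was added after the data were seen.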

Additional observations from a re-analysis of the deposited data

How the results depend on the processing

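At 3 libraries a group, the count of genes that passed after running (5; 1 higher, 4 lower) depended on the method and on single libraries. DESeq2 gave 101 (46 higher, 55 lower), with all 5 among them. No filter gave 2 (1 lower) and the 6 exercised libraries alone 4 (2 higher, 2 lower), and both shared only Lgals8 and Feimin with the 5. Limma-voom, robust estimation, other scalings and other filters gave 4 to 6. Leaving out 1 library gave 2 to 131 (1 to 79 higher, 1 to 52 lower), the highest without exercised MKO replicate 2. Leaving out exercised WT replicate 5 and exercised MKO replicate 4 together gave 4, of which 2 were among the 5. In that fit 711 genes had an unadjusted p under 0.05. With the replicate number as a block 2 passed (0 higher, 2 lower), 1 of them shared with the 5; Lgals8 then had 4.14 and missed the threshold (adjusted p = 0.0746, against 5.81e-28 to 0.00825 in the other alternatives). The labels do not say what the replicate numbers stand for, and the cause of this change was not tested. At rest the 1 gene became 4 with DESeq2, 2 with limma-voom, 2 with the pair of libraries left out and 1 to 3 without single libraries. For the difference between states 0 genes became 3 with DESeq2, 3 with limma-voom, 1 with library totals alone, 1 with a filter of 1 CPM, 1 with the pair left out and 0 to 4 without single libraries. The causes were not tested. Named genes kept their sign except Ckm (0.0598 without exercised WT replicate 4, from -0.14 to that value without single libraries) and Cdh5 (0.0726 with the pair left out). Library totals alone moved the median of all genes to 0.032. Sema3a and the genes listed at 0 rest on few counts.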

Other observations

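Several genes that no list holds also had groups that did not overlap, and none of them passed. Among those with MKO above WT, Inpp5d, a lipid phosphatase of blood cells, was at 2.05, 1.62 and 1.79 CPM in WT and 3.56, 3.17 and 3.44 CPM in MKO muscle (0.90 ± 0.19, adjusted p = 0.19). Htra3, a secreted serine protease gene, was at 13.7, 16.8 and 14.29 CPM in WT and 25.1, 19.02 and 30.6 CPM in MKO muscle (0.74 ± 0.16, adjusted p = 0.19). Trim47, a ubiquitin ligase gene, was at 4.66, 5.36 and 4.76 CPM in WT and 8.69, 7.89 and 8.47 CPM in MKO muscle (0.76 ± 0.14, adjusted p = 0.148). Fam174b, a membrane protein gene, was at 0.494, 0.367 and 0.446 CPM in WT and 1.64, 1.92 and 1.87 CPM in MKO muscle (2.03 ± 0.39, adjusted p = 0.156). It reached the minimum count through MKO libraries alone, which fixed some difference. Trim47 shares 225 exonic bases with Trim65 on the same strand, and Trim65 had 0.02 (adjusted p = 0.965).

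Among those with MKO below WT, Kcnab1, a subunit of potassium channels, was at 2.68, 2.57 and 3.27 CPM in WT and 1.03, 0.958 and 0.4305 CPM in MKO muscle (-1.81 ± 0.36, adjusted p = 0.156). Fam13c was at 9.18, 12.9 and 21.1 CPM in WT and 3.01, 7.298 and 3.59 CPM in MKO muscle (-1.64 ± 0.33, adjusted p = 0.156). Cntnap2, an adhesion gene of nerve fibres, was at 6.36, 5.14 and 8.63 CPM in WT and 3.21, 1.99 and 0.933 CPM in MKO muscle (-1.701 ± 0.43, adjusted p = 0.193). Cd28, known as a costimulatory receptor of T cells, was at 2.401, 2.42 and 3.05 CPM in WT and 0.547, 0.885 and 0.287 CPM in MKO muscle (-2.18 ± 0.39, adjusted p = 0.117), while the T cell genes Cd3d and Cd8a had no counts in these libraries and Cd4 and Cd3e at most 4 and 2. The log2 fold change of Cd28 at rest was -1.43 ± 0.37, which did not pass. Col9a1, a cartilage collagen gene, was at 0.989, 1.03 and 2.23 CPM in WT and 0, 0 and 0.287 CPM in MKO muscle (-3.78 ± 0.83, adjusted p = 0.193). It reached the minimum count through WT libraries alone, which again fixed some difference.

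By chromosome, the share of tested genes with an unadjusted p under 0.05 ran from 12.8% of 651 genes on chromosome 17 to 18.8% of 633 genes on chromosome 10, and chromosome 13, which carries Feimin and Lgals8, had 16.4% of 495.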
